A study of Macaca fascicularis with 10 samples.

Results

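The ubiquitin and proteasome genes described here are the 168 rows, of 7229 in the deposited table, whose names begin as ubiquitin-activating, -conjugating or -ligating enzymes, cullins and their F-box and Kelch adaptors, RING and TRIM ligases, deubiquitinases or proteasome subunits do. They were chosen by name alone. Bulk RNA was sequenced from the dorsal raphe, where most serotonin neurons that reach the forebrain lie, in 10 female cynomolgus macaques (Macaca fascicularis), which the labels give as 1 group with no treatment, genotype or age. Each daughter has a count for her paternal and her maternal allele of a gene, so the values compare the alleles of 1 animal. The paternal share is the paternal count as a percent of both alleles' counts for that gene, so 50% is balance. A gene was taken as measured in a daughter with 10 or more allelic reads, and the numbers 1 to 10 only name the daughters. By the labels, daughters 1, 7 and 8 share a father, 4 and 5 share another, and 6 and 10 share a mother.

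Ubiquitin is a small protein that is joined to other proteins by a chain of enzymes. An E1 enzyme activates it, an E2 carries it and an E3 ligase picks the target, while deubiquitinases remove it again. Chains of ubiquitin send many proteins to the proteasome, a barrel-shaped protease with a core and regulatory caps. In neurons the system trims synaptic proteins and clears damaged ones. A gene with 2 working alleles is mostly read from both, while an X-linked gene of a female is read from the paternal X in some cells and from the maternal X in others.

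Of the 168 genes, 152 were measured in at least 1 daughter, 66 in 5 or more and 4 in all 10, namely HERC2, FBXO21, RNF157 and USP53. Together they held 77759 allelic reads, 1.41% of the table. Depth was uneven, from 30090 allelic reads and 12 measured members in daughter 1 to 999471 reads and 87 members in daughter 6. Intervals on single shares are 95% Wilson intervals. They cover counting error alone, as several reads may come from 1 RNA molecule. The raphe label was checked by TPH2, the serotonin synthesis enzyme, with 9561 reads over 7 daughters. SLC6A4, SLC18A2 and DDC also had reads, while FEV, MAOB and HTR1A had no row. None of the astrocyte, oligodendrocyte or microglia markers listed had a row either, which does not show that these cells were absent. Markers of other cells had reads, such as endothelial VWF (1889 reads), PDGFRA of oligodendrocyte precursors (1552) and TTR of the choroid plexus (764). CLDN5, CSPG4 and KCNJ13, listed for the same cells, had no row.

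On the whole the members were read about equally from both alleles. Over the 66 genes measured in 5 or more daughters, the median of the mean paternal share was 50% (quartiles 47.1 and 52.4), against 49.8% over all 2981 such genes of the table. The mean lay between 45% and 55% in 50 of the 66 (75.8%), against 77.3% of all 2981 genes. The lowest mean of a member was 42.1%, for RNF207. Of 650 single measurements of members, 473 (72.8%) lay between 40% and 60%, against 69.8% over all genes. Single daughters nonetheless departed from balance, with intervals that left out 50% in 116 of the 650 (17.8%), against 20.1% over all genes. Among these, HERC2 left out 50% in 9 of 10 daughters, on differing sides. FBXO21, PSMD8 and FBXO2 had no paternal read in 1 daughter each, and the X-linked RNF128 had no maternal read in 1. USP11 moved with the other X-linked genes of the animal.

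**Figure D1:**
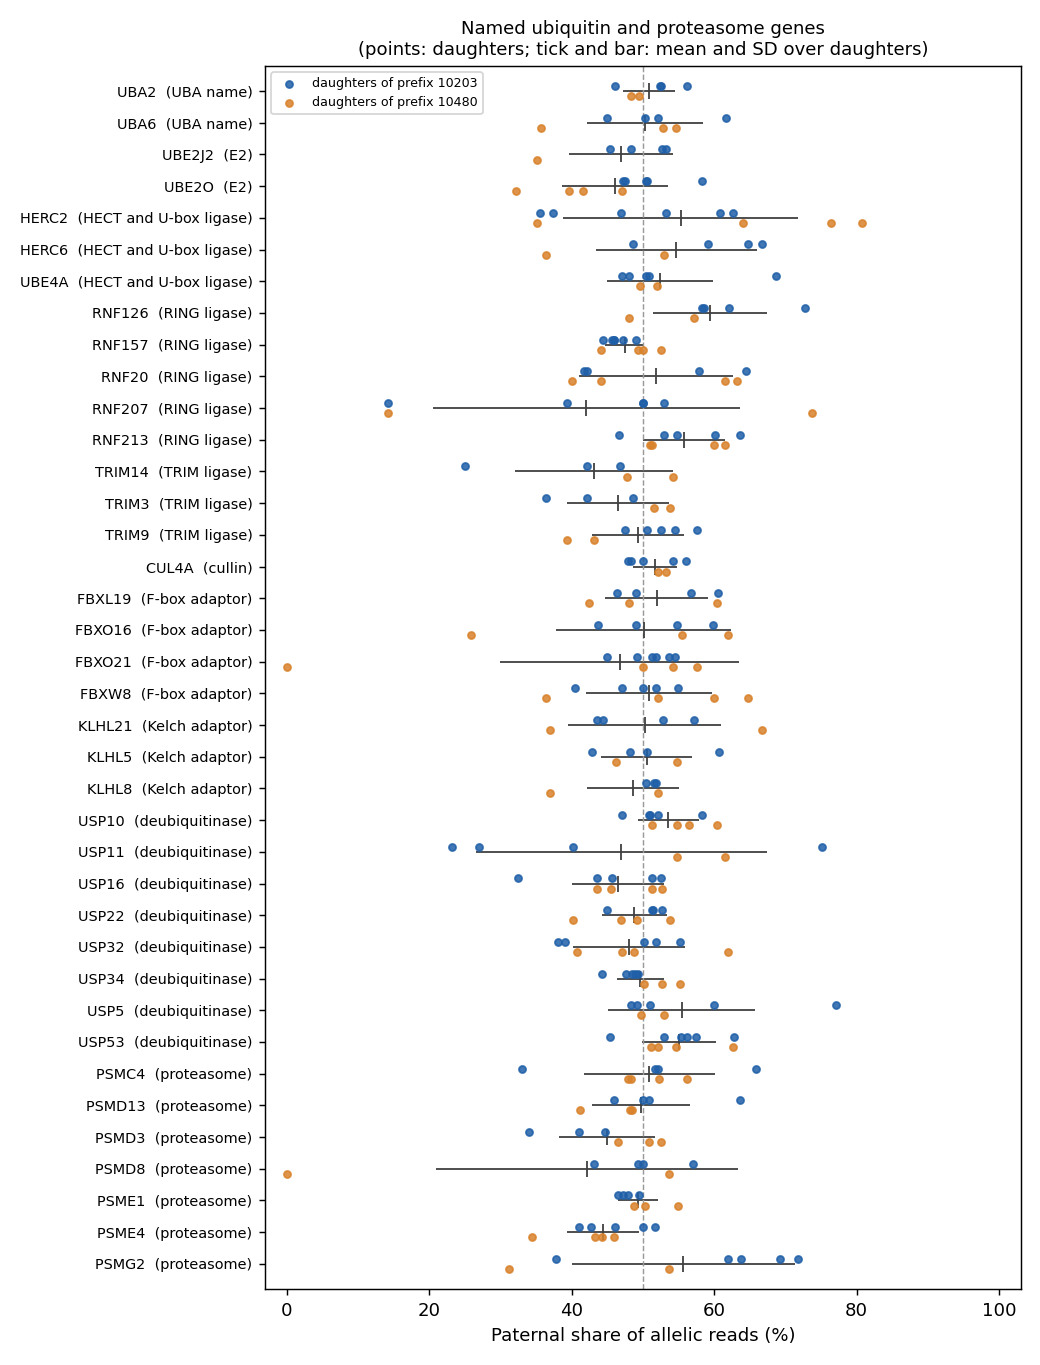
Paternal share of allelic reads (x axis, percent) for the named members measured in 5 or more daughters, ordered by role, with 1 point per daughter coloured by title prefix and a tick and bar for the mean and SD. Most genes cluster around 50%, FBXO21 and PSMD8 each have 1 daughter at 0, and HERC2 and USP11 spread on both sides.

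The first comparison asked whether any gene was read more from the paternal than from the maternal allele across daughters. Under edgeR's quasi-likelihood test, blocked by daughter, 0 of 66 members were called at an adjusted p of 0.05, and 0 of 2981 genes (0%) were called in the whole table. An unadjusted p under 0.05 was reached by 4 members in edgeR and by 3 in DESeq2, and DESeq2 called 0 too. For edgeR that is 6.06% of the members, against 93 of 2981 genes (3.12%) in the whole table. For DESeq2 it is 4.55%, against 62 of 2981 genes (2.08%). The fitted log2 ratio of paternal over maternal reads was above 0 in 32 members and below 0 in 34. Differences that take opposite sides in different daughters are not seen by this test, so 0 calls do not show that the alleles were equal.

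The members nearest to the threshold did not pass it and lay on both sides. USP53, a deubiquitinase-family protein of cell junctions, had a lowest share of 45.5%, a median of 55% and a highest of 62.8% over 10 daughters, with a log2 ratio of 0.30 ± 0.11 (SE, edgeR adjusted p = 1). It lay above 50% in 9 of 10, and the exception was daughter 2.

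On the maternal side stood PSME4, the large activator cap PA200 of the proteasome, at a lowest share of 34.4%, a median of 44.3% and a highest of 51.7% over 9 daughters (log2 ratio -0.32 ± 0.12, SE, edgeR adjusted p = 1). Daughter 6 alone lay above 50%, and daughter 4 had 99 paternal and 99 maternal reads. RNF126, a quality-control ligase, averaged 59.5% ± 8.02 (SD, n = 6), but on 146 reads in all and with no interval that left out 50%. RNF213, a very large ligase with an ATPase core, averaged 55.8% ± 5.78 (SD, n = 9). RNF157, a RING ligase of neurons, averaged 47.4% ± 2.73 (SD, n = 10). PSMD3, a cap subunit, averaged 44.97% ± 6.76 (SD, n = 6), with daughter 3 at 34.0% of 332 reads, and USP16, a histone H2A deubiquitinase, 46.5% ± 6.50 (SD, n = 9). All of these had an adjusted p of 1 by edgeR.

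HERC2 was the member with most reads and one of the most unequal. It encodes a giant HECT ligase with a part in DNA repair. The daughters with more paternal than maternal reads were daughter 7 with 80.7% (92 paternal and 22 maternal reads, interval 72.5 to 86.9), daughter 8 with 76.5% (interval 68.7 to 82.8, of 136 reads), daughter 9 with 64.0% (555 and 312), daughter 5 with 62.6% (726 and 433) and daughter 2 with 60.9% (675 and 434). Daughter 6 had 53.2% (1182 and 1039, interval 51.1 to 55.3). The maternal allele was above in daughter 3 with 35.6% paternal (378 and 683), daughter 4 with 37.4% (502 and 842) and daughter 10 with 35.1% (278 and 513, interval 31.9 to 38.5), while daughter 1 had 46.9% of only 32 reads.

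The interval of HERC2 thus left out 50% in 9 of 10 daughters, on the paternal side in 6 and on the maternal side in 3. The mean was 55.3% ± 16.5 (SD, n = 10), and the SD was 4.50 times the 3.66 points that counting alone would give. The log2 ratio over daughters was 0.29 ± 0.29 (SE, edgeR adjusted p = 1). Of the 3 daughters with the same labelled father, daughters 7 and 8 lay at 80.7% and 76.5% and daughter 1 at 46.9%, with an interval of 30.9 to 63.6. Daughters 4 and 5, who also share one, lay on opposite sides at 37.4% and 62.6%, and daughters 6 and 10, who share a mother, had 53.2% and 35.1%. Within title prefix 10480 the mean was 64.1% ± 20.6 (SD, n = 4) and within 10203 it was 49.4% ± 11.5 (SD, n = 6), and each prefix held daughters on both sides.

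In the gene order of the assembly T2T-MFA8v1.1, HERC2 lies on chromosome 7 between NIPA2 and OCA2 among genes of the table. NIPA2, a magnesium transporter gene, lay between 46.9% and 63.3% in 8 daughters, and on the same side of 50% as HERC2 in 7 of them. TUBGCP5, a deeper neighbour with up to 577 reads, was on the same side in 3 of 8, with 42.6% in daughter 5 and 40.6% in daughter 6, where HERC2 was above 50%. CYFIP1 was on the same side in 5 of 7, OCA2 in 3 of 5 and GABRA5 in 4 of 6. OCA2, a pigment gene, ran from 22.6% in daughter 10 to 76.1% in daughter 6, on at most 67 reads. These neighbours were looked at after the values of HERC2 were seen. In human, HERC2 has partial copies elsewhere on its chromosome, so reads of such copies could be counted with it, and their part in the result was not tested. In bulk tissue, cells that differ in their use of the alleles cannot be told apart from an even skew in all cells, nor fewer cells of a type from less RNA per cell.

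**Figure D2:**
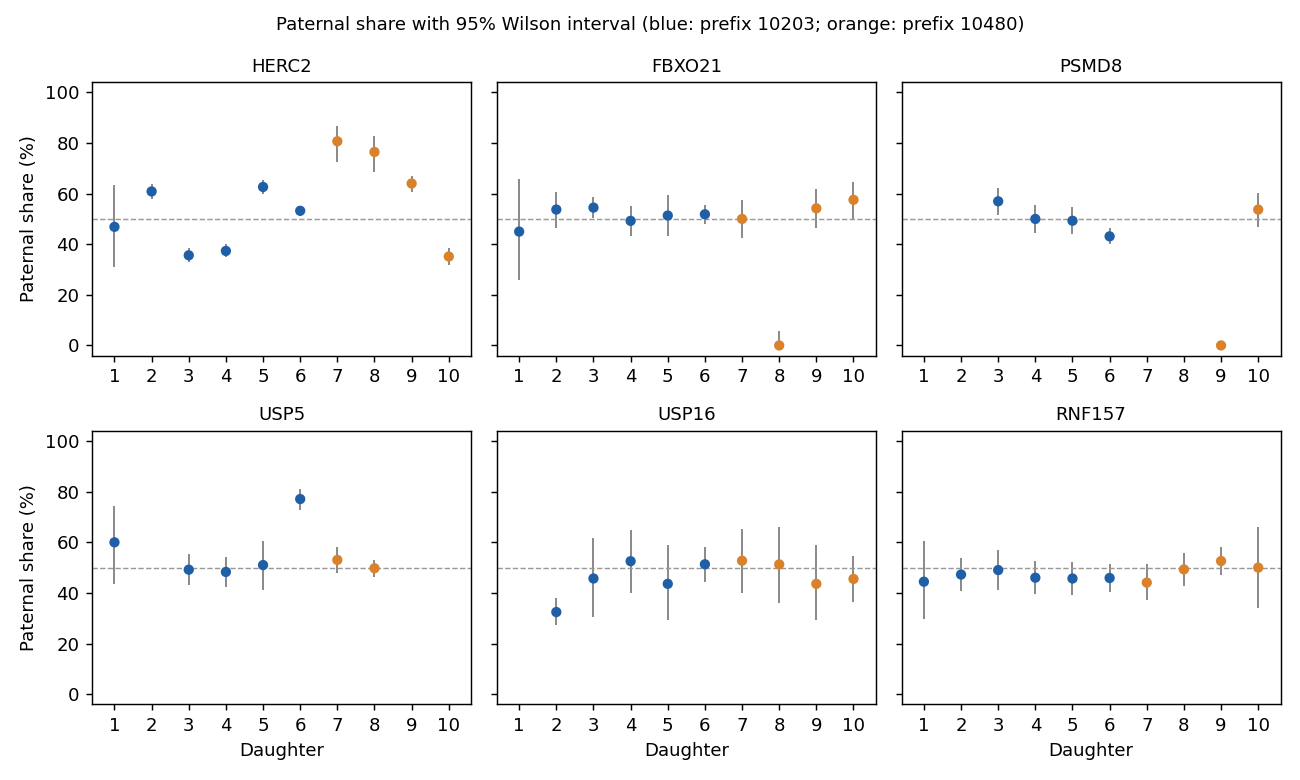
Paternal share (y axis, percent) by daughter (x axis) for 6 members, with 95% Wilson intervals and points coloured by title prefix. HERC2 lies on both sides of 50% beyond its intervals, FBXO21, PSMD8, USP5 and USP16 have 1 daughter apart from the others, and RNF157 stays between 44.1% and 52.6%.

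Near-complete use of 1 allele was rare among the members. With 20 or more reads, 6 of 544 member measurements (1.10%) had 90% or more of the reads on 1 allele, 3 on the paternal and 3 on the maternal side. Over all genes 364 of 22693 measurements, or 1.6%, were in this state. Each of the 6 was a different gene in 1 daughter, and none recurred in a second daughter.

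FBXO21, an F-box protein that picks targets for a cullin ligase, had 0 paternal and 64 maternal reads in daughter 8. A count of 0 of 64 allows a paternal share of up to 4.69% as 3 counts of the total, and its Wilson interval reaches 5.66%. In the other 9 daughters it lay between 45% and 57.6%, with 298 paternal and 249 maternal reads in daughter 3 and 367 and 341 in daughter 6. Daughters 7 and 1, by the labels half-sisters of daughter 8, had 83 reads of each allele and 9 paternal to 11 maternal reads. Near it in the gene order, NOS1 had 51.4% of 111 reads, KSR2 50% of 20 and FBXW8 36.4% of 22 in daughter 8, so these genes had paternal reads.

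PSMD8, a lid subunit of the proteasome cap, had 0 paternal and 282 maternal reads in daughter 9, which allows a paternal share of up to 1.06% by 3 counts and 1.34% by the Wilson interval. It had 57.0% in daughter 3, 50% in 4, 49.3% in 5, 43.1% in 6 and 53.7% in 10. Daughter 9 lay apart from these 5, of which daughters 3 and 6 had intervals that left out 50%, on opposite sides. Of its neighbours in daughter 9, SPINT2 had 48.4% of 124 reads, ACTN4 52.6% of 133 and RYR1 50% of 16, and YIF1B 83.1% of 154, on the opposite side. FBXO2, an F-box protein of neurons that binds glycoproteins, had 0 paternal and 118 maternal reads in daughter 6 (up to 2.54% by 3 counts and 3.15% by the Wilson interval), against 53.1% in daughter 9 and 40.2% in daughter 10. Its neighbour FBXO44, a related F-box gene and also a member, had 262 paternal and 269 maternal reads in the same daughter 6.

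On the paternal side, RNF128, an X-linked ligase known from T cells, had 65 paternal and 0 maternal reads in daughter 4, which allows a maternal share of up to 4.62% by 3 counts (Wilson interval of the paternal share 94.4 to 100), against 25% of 32 reads in daughter 10. UBE2N, the E2 of lysine-63 chains, which in human has a near-identical copy, had 34 paternal reads and 1 maternal in daughter 4, the only daughter with counts for it. KLHL26, a Kelch adaptor, had 24 and 1 in daughter 5, and 41.2% to 71.4% in 3 other daughters of at most 21 reads. Whether the positions behind such values truly differ between the parents could not be checked from the counts.

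Smaller departures were more common. The 95% interval left out 50% in 116 of 650 member measurements (17.8%), 62 on the paternal and 54 on the maternal side, against 5603 of 27887 (20.1%) over all genes. The share per daughter ran from 9.09% of members in daughter 7 to 27.6% in daughter 6, against 16.7% and 22.7% of all genes in the same daughters. By role, the departures were 22 of 94 measurements for proteasome genes (23.4%), 20 of 138 for deubiquitinases (14.5%), 15 of 118 for RING ligases (12.7%), 17 of 113 for F-box adaptors (15%), 12 of 52 for TRIM ligases (23.1%), 8 of 47 for Kelch adaptors (17%) and 5 of 25 for E2 enzymes (20%). Genes with UBA names had 6 of 19 (31.6%), 5 paternal and 1 maternal, while cullins had 0 of 10 and UBR3 had 0 of 4. HERC and UBE4 ligases had 11 of 30 (36.7%), and 9 of those 11 were HERC2. These roles differ in reads per measurement, with a median of 122 for the proteasome and 35 for RING ligases, and deeper values have narrower intervals.

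The spread between daughters was close to counting error for most members. Over the 66 genes the median SD of the share was 7.37 points and the median ratio to the SD that counting gives around equal alleles was 1.09, against 9.53 points and 1.3 over all 2981 genes. The ratio was above 2 in 8 of 66 members (12.1%), against 19% of all genes, which is a description with no test. Among these were HERC2, FBXO21, PSMD8, USP11, USP5, PSMC4 and PSMG2. Among the 7 members with over 2000 reads the median ratio was 2.37, against 1.53 in the 340 genes of that depth. These 7 included HERC2, PSMD8, FBXO21 and USP5. In every shallower group by total reads the members had the lower median ratio. From the fewest reads upward it was 0.874 against 1.18, 1.11 against 1.24, 1.04 against 1.37 and 1.16 against 1.4.

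**Figure D3:**
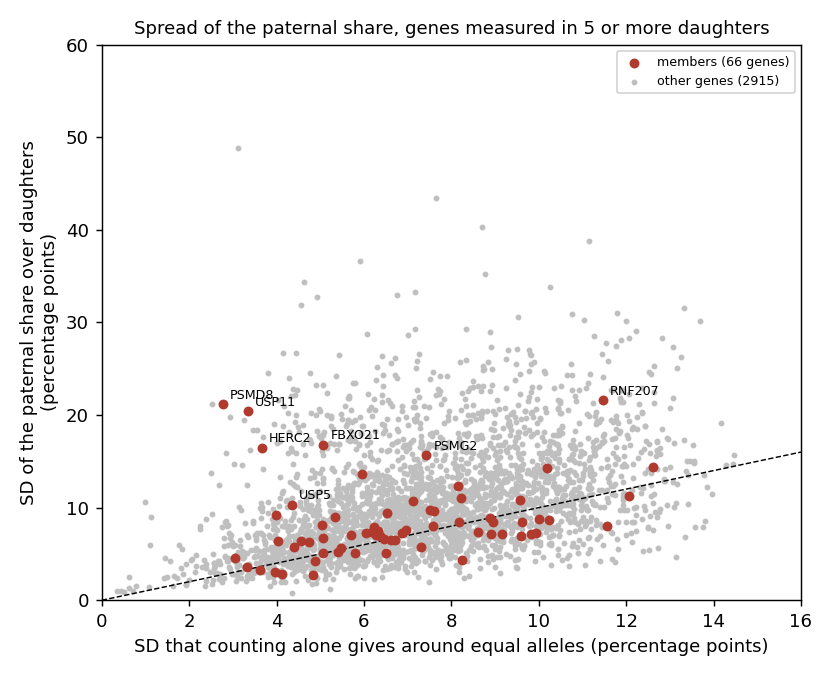
SD of the paternal share over daughters (y axis, percentage points) against the SD that counting alone gives around equal alleles (x axis, percentage points), for members and for the other genes measured in 5 or more daughters. The dashed line marks equality, most of the 66 members lie near it, and PSMD8, USP11, HERC2 and FBXO21 lie far above it.

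The proteasome genes showed both ends. The steadiest of those measured in 7 or more daughters was PSME1, a subunit of the 11S activator ring, with a lowest share of 46.5%, a median of 48.8% and a highest of 54.9% over 7 daughters, an SD of 2.79 against 4.13 points expected from counting. PSMB3, of the core, lay between 47.9% and 51.6% in 4 daughters, and was named after its values were seen. PSMD13, of the lid, had a mean of 49.8% ± 6.90 (SD, n = 7), and its intervals left out 50% in daughters 6 and 8, both on the maternal side at 45.9% and 41.2%. PSMC4, an ATPase of the cap base, gave 65.8% for daughter 1 (79 reads) and 33.0% for daughter 6 (106), with 47.9% to 56.2% in the other 6 daughters. PSMG2, an assembly chaperone, gave 71.8% for daughter 6 (78 reads), 69.3% for daughter 4 (127), 63.8% for daughter 3 (47) and 61.9% for daughter 5 (84). It was lower at 53.7% for daughter 9 (41), 37.8% for daughter 2 (74) and 31.2% for daughter 7 (16). PSMC3IP matches the name pattern but encodes a recombination protein and no proteasome subunit.

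Among deubiquitinases, USP34, a Wnt pathway enzyme, was steady at 49.6% ± 3.30 (SD, n = 8) and left out 50% in no daughter. USP22, of the SAGA coactivator complex, averaged 48.8% ± 4.55 (SD, n = 8) over 3533 reads, with daughter 4 at 44.9% the only interval away from 50%. USP10 averaged 53.6% ± 4.25 (SD, n = 9), lay above 50% in 8 of 9 daughters, and left out 50% in daughters 6 and 9 at 58.3% and 60.4%. USP32 averaged 48.1% ± 7.88 (SD, n = 9). USP5, which takes apart free ubiquitin chains, had 320 paternal and 95 maternal reads in daughter 6, a share of 77.1% (72.8 to 80.9), against 48.3% to 60% in the other 6 daughters. USP16 had 97 paternal and 202 maternal reads in daughter 2, a share of 32.4% (27.4 to 37.9), against 43.6% to 52.7% in the other 8.

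Of the activating enzymes, UBA2, the catalytic subunit for the ubiquitin-like SUMO, averaged 50.9% ± 3.62 (SD, n = 6), with daughter 6 at 56.3% (52.2 to 60.2). UBA6, a second E1 for ubiquitin, averaged 50.3% ± 8.14 (SD, n = 7), with daughter 2 at 61.6% of 323 reads and daughter 6 at 45.04% of 464 on opposite sides, both with intervals that left out 50%. Among E2 enzymes, UBE2O, a large E2 with ligase activity, averaged 46.1% ± 7.47 (SD, n = 9) and UBE2J2, of the endoplasmic reticulum, 47.0% ± 7.30 (SD, n = 5). Both were lowest in daughter 10, at 32.3% of 62 reads and 35.2% of 71. UBE2G2, also of the endoplasmic reticulum, had 36.4% of 77 reads in daughter 10 too, against 52.9% and 61.9% in daughters 5 and 6. These 3 genes lie on chromosomes 16, 1 and 3. Another E2, UBE2H, was balanced in daughter 10, at 49.0% of 98 reads, the only daughter with counts for it. These E2 values were set side by side after they were seen. Low shares in daughter 10 were not particular to E2 genes, as HERC2 and PSME4 were also lowest there. Intervals left out 50% for 21.6% of members in daughter 10, against 19.9% of all genes.

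RNF157 was the steadiest of all members measured in 7 or more daughters, with a lowest share of 44.1%, a median of 46.7% and a highest of 52.6% over 10 daughters. Its SD of 2.73 points was below the 4.84 points that counting gives. RNF20, which ubiquitinates histone H2B, averaged 51.9% ± 10.8 (SD, n = 8), with daughter 4 at 41.7% of 175 reads the only interval away from 50%. RNF207 had the largest SD among members measured in 7 or more daughters, 21.6 points (n = 7), but on 163 reads in all. UBE4A, a U-box ligase that extends chains, averaged 52.4% ± 7.40 (SD, n = 7) and HERC6 54.7% ± 11.3 (SD, n = 6). UBR3, of the family that reads protein amino ends, averaged 50.9% ± 3.57 (SD, n = 4).

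TRIM9, a neuronal ligase of axon branching, averaged 49.3% ± 6.42 (SD, n = 7) and lay at 57.6% for daughter 3 (262 reads) and 39.4% for daughter 10 (137). TRIM3, also a neuronal ligase, averaged 46.5% ± 7.17 and TRIM14, a TRIM protein of antiviral signalling, 43.2% ± 11.05 (SD, n = 5 each). The cullin scaffold CUL4A averaged 51.7% ± 3.07 (SD, n = 7) and left out 50% in no daughter, and CUL5 had 52.4% of 82 reads in daughter 4, the only one with counts for it. The Kelch adaptors KLHL5, KLHL21 and KLHL8 averaged 50.6% ± 6.4 (SD, n = 6), 50.3% ± 10.8 (SD, n = 6) and 48.6% ± 6.50 (SD, n = 5). The F-box adaptors FBXL19, FBXW8 and FBXO16 averaged 51.9% ± 7.22 (SD, n = 7), 50.8% ± 8.86 (SD, n = 9) and 50.1% ± 12.3 (SD, n = 7), and for FBXO16 the lowest value was 25.9% of 27 reads in daughter 9.

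USP11, the only X-linked member with enough daughters for a test, followed the other X-linked genes. In females 1 X is inactive in each cell, and the side that is used more differs between animals. It encodes a nuclear deubiquitinase. In daughter 2 its share was 40.2% of 271 reads where the median of X-linked genes outside the members was 38.3%, in daughter 3 it was 27.0% of 356 reads beside 27.9%, and in daughter 4 it was 75.2% of 141 reads beside 73.4%. Daughter 5 gave 23.2% of 311 reads beside 27.6%, daughter 7 gave 54.7% of 137 beside 57.5%, and daughter 8 gave 61.6% of 359 beside 52.8%. Pearson's r was 0.977 (exact permutation test, two-sided, n = 6, p = 0.00417, 0.0121 after Benjamini-Hochberg adjustment over 58 X-linked genes). Spearman's rho was 0.943 (exact permutation p = 0.0167, adjusted 0.0569), which does not pass. Without daughters 4 and 5, the farthest from the median, r was 0.947 over the other 4. By the same test 36 of the 58 X-linked genes, or 62.1%, were called, all with r above 0, so USP11 did as most X-linked genes did. Without daughter 4, 11 of 42 were called and USP11 had too few daughters for the test. Title prefix 10203 held 4 of its daughters and 10480 held 2, too few for a value within either.

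The other X-linked members were measured in 1 to 4 daughters, too few for a test. KLHL15 gave 75.6% for daughter 4 (41 reads), 39.6% for daughter 5 (48), 50% for daughter 6 (82) and 25% for daughter 10 (12). KLHL13 gave 21.1% for daughter 5 (19 reads) and 30.8% for daughter 6 (39). The cullin CUL4B gave 42.4% for daughter 6 (151 reads) and 43.9% for daughter 10 (41), and UBA1, the main E1 of the cell, 45.8% of 432 in daughter 6. The median of other X-linked genes was 44.4% in daughter 6 and 29.6% in daughter 10.

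**Figure D4:**
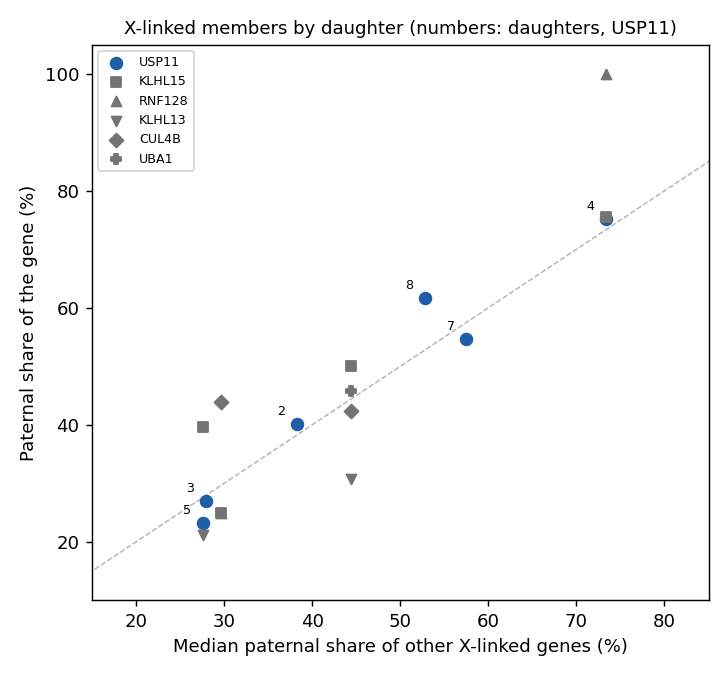
Paternal share of each X-linked member (y axis, percent) against the median share of the X-linked genes outside the members in the same daughter (x axis, percent), with USP11 in blue and its daughters numbered. The 6 points of USP11 run along the dashed line of equality, and RNF128 in daughter 4 lies above it at 100%.

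The daughters' titles carry 2 prefixes, whose meaning the labels do not give, and no member was called between them. The paternal to maternal difference was compared between prefix 10480 (4 daughters) and prefix 10203 (6 daughters), and 0 of 66 members were called by edgeR, against 1 of 2981 genes (0.0335%), CDIPT. At an unadjusted p under 0.05 there were 2 members with edgeR (3.03%), UBE2O and TRIM9, against 106 of 2981 genes (3.56%). With DESeq2 there was 1 member (1.52%), against 71 of 2981 genes (2.38%), so the members were no more frequent than genes in general. UBE2O averaged 40.1% ± 6.13 (SD, n = 4) in prefix 10480 and 50.8% ± 4.48 (SD, n = 5) in prefix 10203. TRIM9 averaged 41.3% ± 2.61 (SD, n = 2) in prefix 10480 and 52.5% ± 3.84 (SD, n = 5) in prefix 10203. Both had an adjusted p of 1 by edgeR between prefixes.

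Daughters who share a labelled parent were set beside those who do not. Among autosomal members whose intervals left out 50% in both daughters of a pair, the sides were alike in 4 of 6 cases in pairs with the same father and in 0 of 2 in the pair with the same mother, against 35 of 67 (52.2%) in pairs sharing no labelled parent. Over all autosomal genes the counts were 159 of 240 (66.2%), 30 of 133 (22.6%) and 1416 of 2883 (49.1%). With 8 cases among related daughters the members give no usable share, and pairs share daughters, so no test was made.

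Other genes of the same system, from a list outside the name pattern, were set beside the members. The list held 91 genes, of which 38 had a row and 23 entered the edgeR test, where 0 passed in either direction. The 23 had means between 46.9% and 53.2%, a median of 50.9% and a median SD of 9.86 points. The median ratio of the SD to that of counting was 1.58, and it was above 2 in 4 of the 23 (17.4%), against 19% of all genes. Among them the NEDD8-activating subunit NAE1 had 48.2% ± 5.2 and the ligase HECW1 46.9% ± 5.28 (SD, n = 9 each). Both are steadier than most of the list, with SDs below the 6.365 and 6.84 points that counting gives.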

How the data were processed

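Per the labels' protocols, total RNA was depleted of ribosomal RNA, made into stranded libraries and sequenced with paired reads of 101 cycles. The submitters' processing notes name Novoalign as a tool. The deposited values are counts of reads for each gene on each parental allele, made by the authors on build macFas5 per the file headers. Phasing, positions used and read filters are not given in the sources used here. The protocol text also describes an antibody step on sonicated nuclei, and no such data were analysed here.

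Here, paternal shares, 95% Wilson intervals and the SD expected from counting were computed in Python 3.11.15 (SciPy 1.17.1, pandas 2.3.3, NumPy 2.4.6; plots by matplotlib 3.10.9). The parental columns were compared by a fit to every gene measured (10 reads) in at least 5 daughters, using edgeR 4.0.16 in R 4.3.3 (glmQLFit, robust, then glmQLFTest), with the daughter as block, the library size summed over both alleles and Benjamini-Hochberg adjustment over all 2981 genes. A gene without a value in a daughter entered as 0 in both columns. DESeq2 1.42.0 was the other tool. Scripts were tested on simulated data. Daughters are separate animals, some of which share a parent.

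Chromosomes and gene order came by symbol from the RefSeq table of T2T-MFA8v1.1, which is not the build of the counts, so no coordinates are printed; 161 of 168 members matched. No sequences were used here. Named genes were, by rule, up to 3 per role with most daughters measured, X-linked members in 6 or more daughters, members with the smallest p (4 per direction), those near single-allele use, the 6 steadiest and the 6 most variable over 7 or more daughters, and the 6 with the highest CPM of allelic reads (HERC2, USP5, PSMC4, USP22, PSMD8 and PSMD13). UBE3A and USP29, in the rule, were not analysed here, and some genes that entered the counts are not reported by name. Totals of allelic reads follow the number of informative positions, so levels were not compared. Members, lists and rules were chosen with earlier results of these data known. Alternatives were other normalisations, read minimums, interval levels, DESeq2, no block, and leaving out each daughter.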

Additional observations from a re-analysis of the deposited data

Results flagged for a closer look

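In 7 of 41 named members measured in 4 to 10 daughters, 1 daughter stood far from the rest by Dixon's 95% criterion. The criterion flags about 1 of 20 groups by chance, but some of these members were named for a wide spread or single-allele use, so their count cannot be read against that rate. By the same criterion 8 of all 85 members measured in 4 or more daughters had such a daughter (9.41%), against 427 of 3646 genes (11.7%). FBXO21 had 0% paternal reads of 64 in daughter 8, against 45% to 57.6% in 9 others, and PSMD8 had 0% of 282 in daughter 9, against 43.1% to 57.0% in 5 others. USP5 had 77.1% of 415 in daughter 6, against 48.3% to 60% in 6 others, and USP16 had 32.4% of 299 in daughter 2, against 43.6% to 52.7% in 8 others. KLHL8 had 37.0% of 27 in daughter 8, against 50.5% to 52.1% in 4 others. UBE4A had 68.8% of 16 and PSMD13 63.6% of 11 in daughter 1, the shallowest library, with intervals of 44.4 to 85.8 and 35.4 to 84.8 that include 50%.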

How the results depend on the processing

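For members, 0 calls between paternal and maternal columns and between prefixes held under each alternative run. The run without the replicate block, which also used another normalisation, could hardly have called any gene. Differences between animals entered its error, and 0 of 2981 genes reached even an unadjusted p under 0.05 by edgeR. Over all genes the parental test called 2 without a read filter (FAM199X and ZIM2, no members) and 0 to 1 on leaving out a daughter. That 1 was TSPAN7, without daughter 4. The prefix test called 0 with DESeq2 and 0 with 10 or more reads required in 2 or more daughters of each prefix. X-linked genes following the others numbered 13 with Spearman's rho, 2 within prefix 10203 (of 2 tested, an alternative chosen after seeing the data), 11 to 36 on leaving out a daughter (11 of 42 without daughter 4) and 0 of 23 without the 2 farthest daughters, where fewer genes and daughters were tested. USP11 kept r = 0.977 in the 4 such sets that could test it, since none of these daughters measured it. Its adjusted p was 0.0103 to 0.0121, and 0.0104 with 20 or more reads. Intervals away from 50% fell to 10.0% of measurements at 99%. The 8 members with the smallest p kept their direction in all 130 alternatives, and none passed. They were picked by p from these same data, and the alternatives reuse most of the daughters. A kept direction was therefore likely from the start and is no separate evidence for it. Depth limits single values, with 12 members measured in daughter 1.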
